A study of Homo sapiens with 4 samples.

Results

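The genes described here are those whose messenger RNA responded differently to a miR-4800-3p mimic in PSN-1 than in MIA PaCa-2, 2 lines of human pancreatic cancer cells. For each gene, the log2 change between mimic and scramble was taken in PSN-1 and in MIA PaCa-2, with 1 FPKM added to every value, and the MIA PaCa-2 change was subtracted from the PSN-1 change. FPKM are sequenced fragments scaled by transcript length and library size. Of 26255 gene symbols, 7936 had a mean of at least 5 FPKM in both lines after 2290 symbols of short RNAs were left out by their prefix. Among these, 15 genes (0.189%) passed 1.5-fold (a log2 change of 0.585) in opposite directions. Another 201 genes (2.53%) passed 1.5-fold in 1 line and were flat in the other, where flat means within 1.1-fold. These 216 genes were chosen by the values reported for them below, so those values are a description and carry no test.

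Both lines are established human lines labelled as epithelial and as derived from pancreatic tumour. Each was transfected with a mimic of miR-4800-3p or with a negative control oligonucleotide of scrambled sequence, to look for messenger RNAs that the microRNA targets. The sources used here do not give the dose or the time after transfection. The 4 groups, mimic and scramble in either line, hold 1 library each, so no difference below has a replicate check and no p-value is given.

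MicroRNAs are short RNAs that guide an Argonaute protein to messenger RNAs, mostly through pairing of the seed (bases 2 to 8) with a site in the 3′ untranslated region (3′ UTR), and lower the stability or translation of those messengers. A mimic is a synthetic duplex that supplies the mature microRNA. The same microRNA can be followed by different changes in different lines, since the lines express different targets and different regulators downstream of them.

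The mature microRNA is shown because its seed defines the sites searched below. It is encoded at chr4:2250091-2250109 on the reverse strand (GRCh38.p14, RefSeq), and its seed is in capitals.
hsa-miR-4800-3p: cAUCCGUCcgucuguccac

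A perfect match to the seed followed by an A reads GACGGATA in the messenger (an 8mer), and the shorter 7-base matches read GACGGAT or ACGGATA. Of the 197 genes described here that had an annotated 3′ UTR (GENCODE release 29, GRCh38), 7 held at least 1 such site. Over all tested genes with a 3′ UTR, 193 of 7547 did (2.56%). None of the 7 was among the genes that went in opposite directions. Only 11 of those higher in MIA PaCa-2 and 1 of those higher in PSN-1 had a 3′ UTR, too few to read. The sites of 3 genes that were lower in PSN-1 and flat in MIA PaCa-2 and of 1 gene with the reverse pattern are shown with the site in capitals.
SPRY4: acagttgtGACGGATgtatggat
NR2F1: ttattgtgGACGGATgtggatat
ZNF740: ggagccccACGGATAccccaggg
HSPG2: aacggacgGACGGATgccgctgg

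In GRCh38 coordinates these 3′ UTR sites lie at chr5:142312266-142312272, reverse strand (SPRY4), chr5:93594204-93594210, forward strand (NR2F1), chr12:53190227-53190233, forward strand (ZNF740) and chr1:21822488-21822494, reverse strand (HSPG2). A site in capitals is a match of letters in an annotated 3′ UTR, and binding was not measured. The other 3 genes with a site were AEN and C12orf49, higher in MIA PaCa-2 and flat in PSN-1, and MAK16, lower in MIA PaCa-2 and flat in PSN-1.

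From the steps between low values, 1 FPKM was estimated to equal 12.6 to 15.9 fragments per kb, depending on the library. At that depth the difference between the lines of a 2 kb transcript has a counting error (SE) of 0.259 on the log2 scale at 5 FPKM, 0.13 at 20 FPKM and 0.058 at 100 FPKM. These errors cover fragment counting only and leave out variation between cultures. In a bulk library, fewer expressing cells and less RNA per cell cannot be told apart. Over all 7936 genes the median log2 change was 0.015 in MIA PaCa-2 against -0.0073 in PSN-1, and the SD over genes was 0.34 and 0.28. The epithelial label was met in part by the markers, with KRT8 at 537 to 922 FPKM and KRT18 at 495 to 718 FPKM over the 4 libraries. KRT7 was at 0 and EPCAM at 0.10 to 0.14 FPKM in MIA PaCa-2, against 287 to 406 and 24.1 to 28.4 FPKM in PSN-1, while CDH1, the epithelial cadherin, was at 0.17 to 1.51 FPKM in all 4. Summed leukocyte markers were at 0.73 to 5.43 FPKM with CD3E at 0, and summed endothelial markers at 0 to 7.99 FPKM. Fibroblast markers summed to 44.3 to 77.0 FPKM, made up of COL1A2 in MIA PaCa-2 (59.9 and 76.8 FPKM for mimic and scramble) and mostly of PDGFRB, LUM and COL1A1 in PSN-1 (10.2 to 20.9 FPKM each). VIM, the mesenchymal filament vimentin, was at 4401 and 4112 FPKM in MIA PaCa-2 and at 1235 and 1144 FPKM in PSN-1. Of the other mesenchymal markers, ZEB1 was at 30.5 and 24.1 FPKM in MIA PaCa-2 and at 22.7 and 19.8 FPKM in PSN-1. CDH2 was at 0 in both MIA PaCa-2 libraries and at 0.051 and 0.043 FPKM in PSN-1. Acinar and islet markers were at 0 in MIA PaCa-2, while PRSS1, an acinar trypsinogen, was at 17.4 and 20.6 FPKM in PSN-1 with INS and GCG at 0. The part of these markers in the differences between the lines was not tested.

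MIA PaCa-2 moved further than PSN-1 in the upward direction. In MIA PaCa-2, 361 genes (4.55%) were higher and 225 (2.84%) lower past 1.5-fold, and in PSN-1 139 (1.75%) were higher and 196 (2.47%) lower. The 15 opposite genes comprised 12 that were higher in MIA PaCa-2 and lower in PSN-1 (0.151%) and 3 with the reverse pattern (0.0378%). For comparison, 54 genes (0.68%) were higher and 48 (0.605%) lower in both lines. Of the genes changed in 1 line only, 95 (1.2%) were higher and 48 (0.605%) lower in MIA PaCa-2, and 15 (0.189%) were higher and 43 (0.542%) lower in PSN-1. A PSN-1 change below the MIA PaCa-2 change by more than 2-fold was found for 86 genes (1.08%), and above it for 28 (0.353%).

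**Figure D1:**
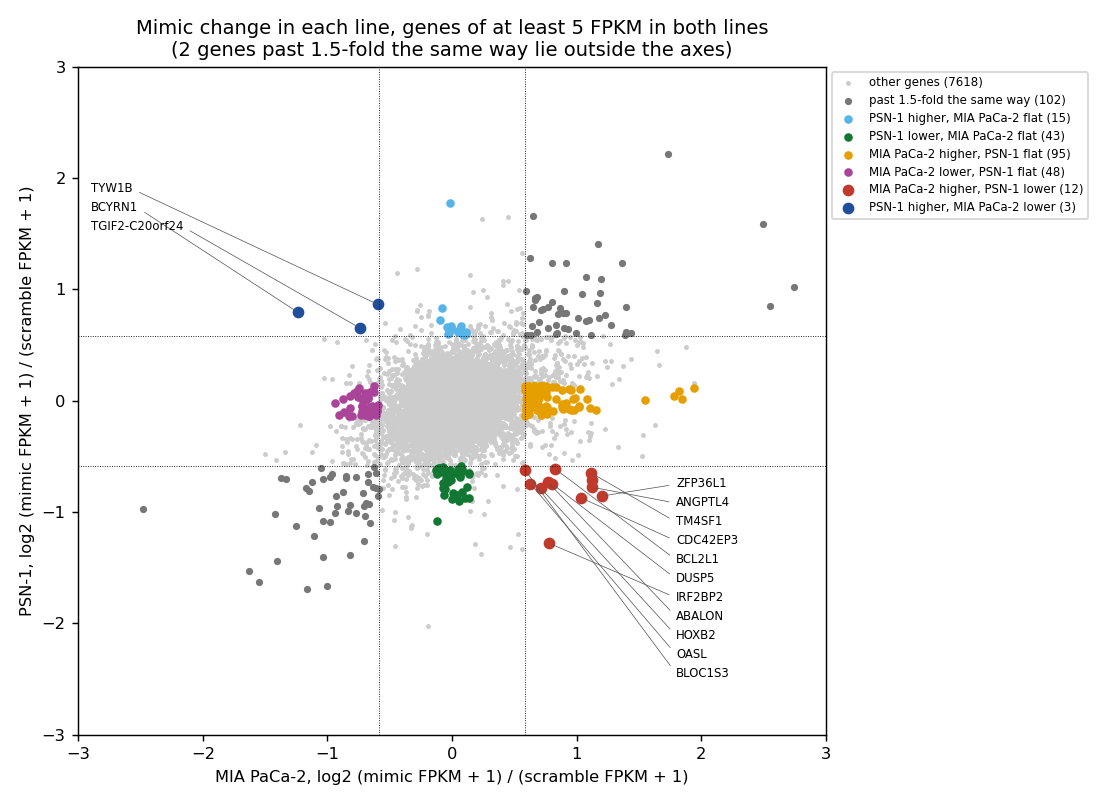
Log2 change of each tested gene in MIA PaCa-2 (horizontal axis) and PSN-1 (vertical axis), 1 point per gene, with dotted lines at 1.5-fold. Red points are the 12 genes higher in MIA PaCa-2 and lower in PSN-1, dark blue points the 3 genes with the reverse pattern, and the 4 other colours the genes changed in 1 line and flat in the other; 2 genes higher in both lines lie outside the axes.

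Among the 12 genes that were higher in MIA PaCa-2 and lower in PSN-1, 4 encode regulators of transcription, messenger decay or kinase signalling. IRF2BP2, a transcriptional co-repressor, was at 42.9 FPKM with the mimic and 24.5 FPKM with the scramble in MIA PaCa-2, and 7.81 and 20.4 FPKM in PSN-1. Its log2 changes of 0.78 and -1.28 gave the lowest difference of all tested genes, -2.06, with a counting error of 0.0886. The mimic libraries were the highest and the lowest of the 4 for this gene, with both scramble libraries between them. ZFP36L1, which binds AU-rich elements and promotes the decay of messenger RNAs, was at 244.6 FPKM with the mimic and 106 FPKM with the scramble in MIA PaCa-2, and 29.5 and 54.3 FPKM in PSN-1. The difference of its log2 changes was -2.06 (counting error 0.0576). Its paralogs did not share the pattern. The MIA PaCa-2 and PSN-1 log2 changes were 0.28 and 0.93 for ZFP36, and -0.049 and -0.028 for ZFP36L2. Of the paralogs of IRF2BP2, IRF2BPL had the same signs and was also lower past 1.5-fold in PSN-1, with log2 changes of 0.15 and -0.66, while IRF2BP1 had -0.17 and 0.28. These paralogs were looked up after the values of ZFP36L1 and IRF2BP2 were seen.

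DUSP5, a nuclear phosphatase that inactivates ERK and is itself an ERK-induced gene, was at 41.7 FPKM with the mimic and 23.5 FPKM with the scramble in MIA PaCa-2, and 249 and 419 FPKM in PSN-1. PSN-1 held the higher level of DUSP5 in both of its libraries, and the lines moved toward each other with the mimic. Other DUSP genes, looked up after DUSP5 was seen, were mixed. DUSP1, DUSP2 and DUSP8 were higher in both lines, with log2 changes in MIA PaCa-2 and PSN-1 of 0.62 and 1.28, 0.67 and 0.90, and 1.73 and 2.21. DUSP7 had the signs of DUSP5, with 0.59 and -0.22. DUSP6, an ERK phosphatase under 1 FPKM in MIA PaCa-2 and so not tested, was at 123 and 208 FPKM for mimic and scramble in PSN-1. Other untested DUSP genes were mixed in PSN-1. DUSP10 was at 33.4 and 17.4 FPKM for mimic and scramble, DUSP4 at 55.5 and 58.3 FPKM and DUSP9 at 6.18 and 10.8 FPKM. DUSP3, DUSP11, DUSP12, DUSP14, DUSP15 and DUSP16 stayed within 1.5-fold in both lines. HOXB2, a homeobox transcription factor, was at 14.8 FPKM with the mimic and 8.65 FPKM with the scramble in MIA PaCa-2, and 8.46 and 15.3 FPKM in PSN-1. The neighbouring HOXB3 was lower in PSN-1 alone, at 11.4 and 18.1 FPKM for mimic and scramble against 10.5 and 11.3 FPKM in MIA PaCa-2.

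Secreted and surface proteins were also among the 12. ANGPTL4, a secreted inhibitor of lipoprotein lipase, was at 66.5 FPKM with the mimic and 29.96 FPKM with the scramble in MIA PaCa-2, and 177 and 304 FPKM in PSN-1. TM4SF1, a membrane protein of carcinoma cells, was at 441 FPKM with the mimic and 203 FPKM with the scramble in MIA PaCa-2, and 95.2 and 149.6 FPKM in PSN-1. The log2 differences between the lines were -1.901 for ANGPTL4 and -1.76 for TM4SF1, with counting errors of 0.075 and 0.0401. ANGPTL4 was at a higher level in PSN-1 than in MIA PaCa-2 with either oligonucleotide, and TM4SF1 was the reverse.

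Another 5 of the 12 act in the cytoskeleton, apoptosis, antiviral defence and vesicle traffic. CDC42EP3, an effector of the GTPase CDC42 that organizes septins and actin, was at 64.6 FPKM with the mimic and 30.97 FPKM with the scramble in MIA PaCa-2, and 10.03 and 19.2 FPKM in PSN-1. BCL2L1, whose main product BCL-XL protects cells from apoptosis, was at 38.8 FPKM with the mimic and 21.5 FPKM with the scramble in MIA PaCa-2, and 11.7 and 18.4 FPKM in PSN-1. ABALON, a non-coding RNA of the BCL2L1 locus, moved with it and was at 21.2 FPKM with the mimic and 12.02 FPKM with the scramble in MIA PaCa-2, and 7.48 and 13.1 FPKM in PSN-1. Reads of overlapping transcripts may be shared between ABALON and BCL2L1, so these do not count as 2 independent observations. OASL, an interferon-induced protein, had log2 changes of 0.63 and -0.74, and BLOC1S3, a subunit of a complex for lysosome-related organelles, of 0.59 and -0.62. OASL and BLOC1S3 lay under 16 FPKM in all 4 libraries, and their counting errors of 0.246 and 0.237 were the largest of the 12.

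The 3 genes that were higher in PSN-1 and lower in MIA PaCa-2 are all uncertain as single genes. BCYRN1, a short repeat-derived RNA, was at 13.8 FPKM with the mimic and 34.0 FPKM with the scramble in MIA PaCa-2, and 135 and 77.7 FPKM in PSN-1, with a counting error of 0.43 on a difference of 2.03. Its annotated transcript of 200 bases is no longer than the assumed fragment, so that error rests on an assumed minimum length. TYW1B, a near copy of the tRNA-modifying gene TYW1, was at 5.70 FPKM with the mimic and 9.12 FPKM with the scramble in MIA PaCa-2, and 11.04 and 5.61 FPKM in PSN-1. TYW1 itself, at 20.3 FPKM with the mimic and 18.9 FPKM with the scramble in MIA PaCa-2, and 13.02 and 8.32 FPKM in PSN-1, was higher in PSN-1 only. TGIF2-C20orf24, a read-through annotation, had log2 changes of -0.74 and 0.65, while TGIF2 had -0.11 and -0.27 and C20orf24 0.26 and -0.22. With the short RNA symbols kept in, 26 genes went in opposite directions, 15 of them higher in MIA PaCa-2 and 11 higher in PSN-1.

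Near the threshold, BLOC1S3 and TYW1B were just inside. TGIF1, a repressor of TGF-beta signalling, was just outside with log2 changes of 0.56 and -0.56, and so was SLC30A1, a zinc exporter, with 0.56 and -1.33. In the 7 other settings of pseudocount, filter and scaling that could take a gene out at 1.5-fold, the genes that kept opposite directions each time included ANGPTL4, CDC42EP3, DUSP5, IRF2BP2, TM4SF1 and ZFP36L1. None of the 15 passed 2-fold in both lines.

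**Figure D2:**
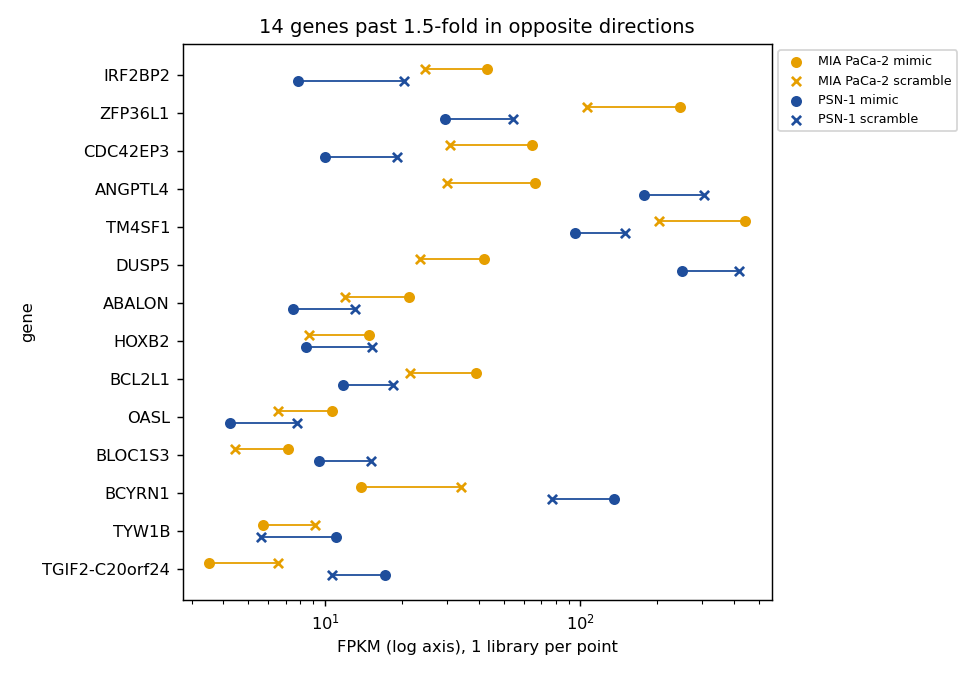
FPKM (log axis) of 14 of the 15 genes that passed 1.5-fold in opposite directions, 1 library per point, circles for the mimic and crosses for the scramble, orange for MIA PaCa-2 and blue for PSN-1. In the upper 11 genes the orange circle lies to the right of its cross and the blue circle to the left; ANGPTL4 went from 29.96 to 66.5 FPKM in MIA PaCa-2 and from 304 to 177 FPKM in PSN-1.

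Genes that were higher in PSN-1 and flat in MIA PaCa-2 were few, 15, and 1 stood far above the others. NR4A1, an orphan nuclear receptor of the immediate-early class, was at 79.5 FPKM with the mimic and 22.5 FPKM with the scramble in PSN-1, and 40.3 and 40.8 FPKM in MIA PaCa-2. Its log2 change in PSN-1 was 1.77, and the MIA PaCa-2 libraries lay between the 2 PSN-1 values. The next in size were PRDM8, a chromatin-associated repressor, at 8.67 FPKM with the mimic and 4.43 FPKM with the scramble in PSN-1, and 43.3 and 45.9 FPKM in MIA PaCa-2, and CCNL1, a cyclin tied to splicing, at 80.3 FPKM with the mimic and 48.3 FPKM with the scramble in PSN-1, and 55.6 and 59.4 FPKM in MIA PaCa-2. NDRG1, a hypoxia- and stress-inducible gene, was at 76.4 FPKM with the mimic and 48.1 FPKM with the scramble in PSN-1, and 17.96 and 18.5 FPKM in MIA PaCa-2. The other named members of this class were GPCPD1, FAM133B, HEATR5B and the non-coding SNHG12, with PSN-1 log2 changes of 0.67, 0.67, 0.65 and 0.64. RPTOR, the subunit that defines mTOR complex 1, was also among the 15, with 0.62 in PSN-1 and 0.11 in MIA PaCa-2.

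The 43 genes that were lower in PSN-1 and flat in MIA PaCa-2 included several nuclear receptors and CDC42 effectors. NR2F6 and NR2F1, orphan receptors of the COUP-TF family, were at 36.6 and 69.1 FPKM and 10.4 and 19.5 FPKM for mimic and scramble in PSN-1. In MIA PaCa-2 the same 2 genes were at 27.01 and 25.9 FPKM and 65.1 and 68.0 FPKM, differences of less than 5 FPKM. The third member of the family, NR2F2, had a PSN-1 log2 change of -0.55 and a MIA PaCa-2 change of 0.26, short of both limits. THRA, the thyroid hormone receptor alpha, was at 19.1 and 30.3 FPKM for mimic and scramble in PSN-1 and at 19.2 and 20.7 FPKM in MIA PaCa-2.

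CDC42EP1 was at 27.7 FPKM with the mimic and 51.9 FPKM with the scramble in PSN-1, and 89.9 and 90.2 FPKM in MIA PaCa-2. CDC42EP4 had log2 changes of -0.62 in PSN-1 and -0.018 in MIA PaCa-2. With CDC42EP3, 3 of the 4 tested members of this effector family were thus lower past 1.5-fold in PSN-1, against 2.47% of all tested genes. Only CDC42EP3 was higher in MIA PaCa-2. CDC42EP2 did not follow the other members, with -0.051 in PSN-1 and -0.46 in MIA PaCa-2. The family was looked up after its members were seen among the 216 genes.

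Other genes lower in PSN-1 alone span signalling, the cell cycle and the cytoskeleton. SPRY4, an inhibitor of receptor tyrosine kinase signalling that carries the site shown above, was at 29.7 FPKM with the mimic and 53.01 FPKM with the scramble in PSN-1, and 118 and 112 FPKM in MIA PaCa-2. KRT80, a keratin, was at 42.6 FPKM with the mimic and 79.2 FPKM with the scramble in PSN-1, and 12.9 and 11.9 FPKM in MIA PaCa-2. CDC25B, a phosphatase that activates cyclin-dependent kinases, was at 162 FPKM with the mimic and 253 FPKM with the scramble in PSN-1, and 70.9 and 71.7 FPKM in MIA PaCa-2. For these 3 genes both MIA PaCa-2 values lay within 10% of each other while the PSN-1 mimic value was well under its scramble. ID2, an inhibitor of basic helix-loop-helix factors, had a PSN-1 log2 change of -0.62, AHNAK, a giant scaffold protein, of -0.68, PTK7, a receptor of non-canonical Wnt signalling, of -0.62, and PSMB10, a subunit of the immunoproteasome, of -0.79. COX14, an assembly factor of cytochrome c oxidase, had the lowest PSN-1 change of the class, -1.08, but was at only 4.17 and 9.93 FPKM. The counting error was 0.312 for that change and 0.442 for the difference between the lines. BLOC1S1 and ENC1 had PSN-1 log2 changes of -0.85 and -0.83. MT1L, a metallothionein pseudogene at 5.31 and 10.6 FPKM in PSN-1, shares sequence with other metallothionein genes and is uncertain. Its expressed relatives MT1E, MT1X and MT2A had PSN-1 changes of 0.51, 0.15 and -0.03.

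The largest class, 95 genes, was higher in MIA PaCa-2 and flat in PSN-1. CEBPB, a bZIP transcription factor of inflammation and stress, was at 49.0 FPKM with the mimic and 13.1 FPKM with the scramble in MIA PaCa-2, and 203 and 191 FPKM in PSN-1. CXCL2, a chemokine that attracts neutrophils, was at 99.5 FPKM with the mimic and 28.3 FPKM with the scramble in MIA PaCa-2, and 98.8 and 95.8 FPKM in PSN-1. With the mimic, CXCL2 in MIA PaCa-2 reached the level that PSN-1 had in both libraries, whereas CEBPB stayed below it. Other chemokines of the CXC group were higher in both lines, with log2 changes in MIA PaCa-2 and PSN-1 of 1.40 and 0.61 for CXCL1 and of 2.74 and 1.02 for CXCL8. KCNK5, a potassium channel, was at 114 FPKM with the mimic and 38.2 FPKM with the scramble in MIA PaCa-2, and 6.21 and 6.18 FPKM in PSN-1.

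CLIP2, a linker of membranes to microtubules, was at 46.6 FPKM with the mimic and 20.3 FPKM with the scramble in MIA PaCa-2, and 64.0 and 67.8 FPKM in PSN-1, and ADGRG1, an adhesion G protein-coupled receptor, at 27.8 FPKM with the mimic and 12.6 FPKM with the scramble in MIA PaCa-2, and 49.7 and 49.2 FPKM in PSN-1. CYR61, a matrix-associated protein and a classic YAP target, was at 109 FPKM with the mimic and 54.6 FPKM with the scramble in MIA PaCa-2, and 149 and 147 FPKM in PSN-1. TGFB1, the ligand of the TGF-beta pathway, was at 17.1 FPKM with the mimic and 8.32 FPKM with the scramble in MIA PaCa-2, and 124.8 and 132 FPKM in PSN-1, many times lower in MIA PaCa-2 than in PSN-1 in both pairs. TXNIP, a thioredoxin-binding protein, went with TGFB1 in this, at 74.0 FPKM with the mimic and 38.7 FPKM with the scramble in MIA PaCa-2, and 562 and 571 FPKM in PSN-1. BHLHE40, a transcriptional repressor of the circadian and hypoxia responses, had changes (log2) of 0.98 in MIA PaCa-2 against -0.084 in PSN-1, and WEE1, the kinase that holds CDK1 inactive, of 0.94 and 0.10. The non-coding LINC01057 was at 15.1 FPKM with the mimic and 6.48 FPKM with the scramble in MIA PaCa-2, and 5.77 and 6.09 FPKM in PSN-1.

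MTRNR2L9, MTRNR2L2 and MTRNR2L8, nuclear copies of the mitochondrial 16S ribosomal RNA gene, had some of the largest differences but are not separable from each other or from mitochondrial RNA by these values. MTRNR2L9 was at 909 FPKM with the mimic and 236 FPKM with the scramble in MIA PaCa-2, and 503 and 466 FPKM in PSN-1. All genes of this family together took 0.289% of the summed FPKM in the MIA PaCa-2 mimic library and 0.0784% in the MIA PaCa-2 scramble library, against 0.171% and 0.161% in PSN-1.

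The 48 genes that were lower in MIA PaCa-2 and flat in PSN-1 were led by regulators of transcription and RNA. NFKBIZ, an inducible nuclear cofactor of NF-kB, was at 4.10 FPKM with the mimic and 8.78 FPKM with the scramble in MIA PaCa-2, and 55.1 and 55.8 FPKM in PSN-1. HNRNPA2B1, a splicing and RNA transport factor, was at 76.8 FPKM with the mimic and 145 FPKM with the scramble in MIA PaCa-2, and 105 and 115 FPKM in PSN-1. SRSF1 and SRSF5, splicing factors of the SR family, were at 10.5 and 18.6 FPKM and 6.65 and 11.8 FPKM for mimic and scramble in MIA PaCa-2. In PSN-1 the same 2 genes were at 46.5 and 43.8 FPKM and 40.004 and 36.8 FPKM, higher with the mimic by less than 1.1-fold. NCOA6, a nuclear receptor coactivator, ZNF296, a zinc finger protein, and DANCR, a non-coding RNA, had MIA PaCa-2 log2 changes of -0.87, -0.88 and -0.82.

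Genes of chromosome segregation were among this class. Of 53 tested genes on a list of G2/M and mitosis genes, 9 fell in it (17.0%), where 0.605% of all tested genes did. CDCA8, a subunit of the chromosomal passenger complex, was at 16.9 FPKM with the mimic and 30.5 FPKM with the scramble in MIA PaCa-2, and 19.2 and 20.2 FPKM in PSN-1. KIF11, the kinesin that separates spindle poles, was at 10.6 FPKM with the mimic and 18.9 FPKM with the scramble in MIA PaCa-2, and 12.6 and 12.01 FPKM in PSN-1. CDK1, the mitotic kinase, was at 18.2 FPKM with the mimic and 29.6 FPKM with the scramble in MIA PaCa-2, and 25.6 and 25.1 FPKM in PSN-1. In all 3 the MIA PaCa-2 scramble library was the highest of the 4, and the PSN-1 pair differed by less than 2 FPKM. AURKB and TTK, kinases of chromosome attachment and the spindle checkpoint, had MIA PaCa-2 log2 changes of -0.68 and -0.73. SMC4 and NCAPG, condensin subunits, had -0.70 and -0.71, and RACGAP1, a regulator of cytokinesis, -0.80. UBE2C, the ubiquitin-conjugating enzyme of the anaphase-promoting complex and also a mitotic gene, went the other way, at 360.3 FPKM with the mimic and 177 FPKM with the scramble in MIA PaCa-2, and 66.7 and 69.3 FPKM in PSN-1.

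**Figure D3:**
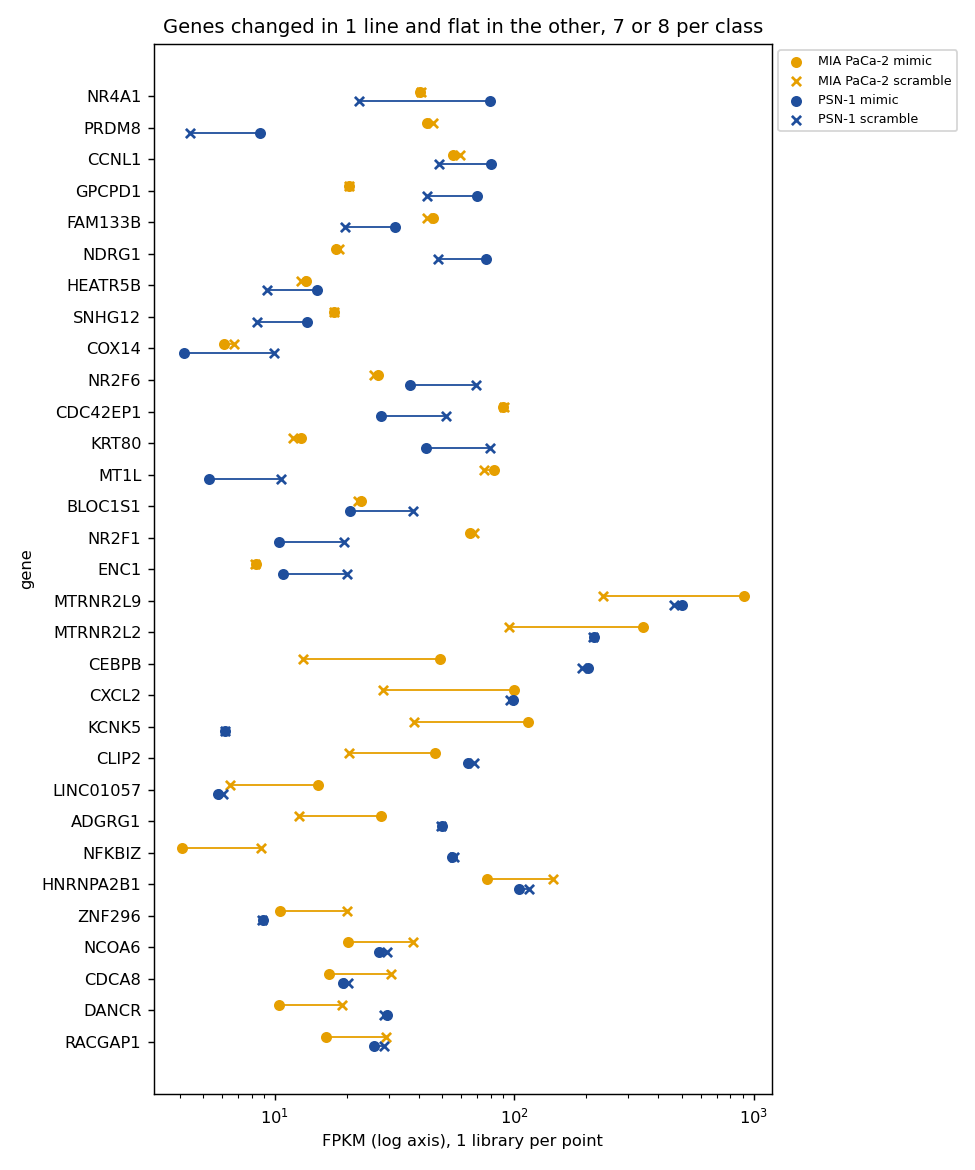
FPKM (log axis) of 8 genes (7 for those lower in MIA PaCa-2 alone) among the largest changes of each of the 4 classes that changed in 1 line and were flat in the other, 1 library per point, circles for the mimic, crosses for the scramble, orange for MIA PaCa-2 and blue for PSN-1. NR4A1 had the longest blue line, 22.5 to 79.5 FPKM, with both orange points near 40 FPKM, and CEBPB a long orange line, 13.1 to 49.0 FPKM, with both blue points near 200 FPKM.

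Promoters were searched because the mitotic genes moved together. RefSeq promoters (GRCh38.p14, 250 bases before to 50 bases after the start) were matched for 6701 tested genes and for 165 of the 216. The motifs, read on both strands, were the cell cycle homology element of mitotic promoters (CHR, TTTGAA), the CCAAT box and a 10-letter NF-kB consensus. The AP-1 site (TGANTCA), the CRE (TGACGTCA) and the TATA box (TATAAA) were also read. So was the binding motif of TEAD factors, GGAATG. Matches of different motifs were counted separately and may overlap. All motifs were read in each class, and most class counts were small. NF-kB letters were in 5 of 33 promoters (15.2%) of genes lower in PSN-1 alone and 1 of 38 (2.63%) of those lower in MIA PaCa-2 alone. TATA was in 2 of 7 (28.6%) of genes higher in MIA PaCa-2 and lower in PSN-1, and in 3 of 73 (4.11%) of those higher in MIA PaCa-2 alone. The shares over all tested genes were 7.60% and 4.63%. CHR was found in 10 of 38 promoters (26.3%) of genes lower in MIA PaCa-2 and flat in PSN-1, against 594 of 6701 (8.86%) of all tested genes. In the 73 promoters of genes higher in MIA PaCa-2 and flat in PSN-1 it was found in 6 (8.22%). The 10 genes were ASF1B, CDCA3, CDCA8, CDK1, DEPDC1B, KIF11, NCAPG, SMC4, SPAG5 and SPDL1, which is largely the mitotic group already described. CCAAT was found in 17 of the 38 (44.7%) and in 37.7% of all. Stretches of 80 bases from 3 of these promoters show the CHR letters in capitals, on the strand of the gene (the reverse complement TTCAAA in KIF11).
KIF11: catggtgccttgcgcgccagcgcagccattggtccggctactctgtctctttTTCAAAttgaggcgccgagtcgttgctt
CDCA8: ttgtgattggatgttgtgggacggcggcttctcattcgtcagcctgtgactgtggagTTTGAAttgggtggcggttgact
NCAPG: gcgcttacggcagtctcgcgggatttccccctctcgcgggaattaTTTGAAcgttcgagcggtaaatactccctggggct

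The stretches lie at chr10:92593050-92593129, forward strand (KIF11), chr1:37692436-37692515, forward strand (CDCA8) and chr4:17810899-17810978, forward strand (NCAPG) in GRCh38.p14, and the capitals begin 28, 23 and 35 bases before the start. CHR also occurs in 33 of 46 promoters of the whole G2/M and mitosis list. Over all tested genes with the letters, the median log2 change was -0.047 in MIA PaCa-2 against 0.016 in PSN-1, against 0.017 and -0.0067 without them.

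CXCL2 and NFKBIZ are shown as a contrast, since both promoters hold the same 10 letters of an NF-kB match (in capitals) while their messengers went in opposite directions in MIA PaCa-2 and stayed flat in PSN-1.
CXCL2: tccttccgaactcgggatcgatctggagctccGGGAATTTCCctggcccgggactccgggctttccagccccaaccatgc
NFKBIZ: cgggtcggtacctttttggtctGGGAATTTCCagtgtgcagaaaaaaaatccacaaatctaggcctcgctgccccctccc

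These lie at chr4:74099226-74099305, reverse strand (CXCL2) and chr3:101827745-101827824, forward strand (NFKBIZ), and the match begins 78 and 223 bases before the start. The NF-kB letters occurred in 509 of 6701 promoters (7.60%). A match is a description of the letters only.

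Pathway lists placed these genes among their partners. The list counts below are to be read against the shares over all tested genes. Past 1.5-fold these were 4.55% upward and 2.84% downward for MIA PaCa-2, and 1.75% upward and 2.47% downward for PSN-1. The difference between the lines passed 1.5-fold upward in 2.87% and downward in 5.71%. The G2/M and mitosis list had 21 of 53 genes lower past 1.5-fold in MIA PaCa-2 against 1 in PSN-1. Its median log2 change was -0.51 in MIA PaCa-2 against -0.098 in PSN-1. The difference between the lines was above 1.5-fold in 15 of the 53 and below it in 2. Outside the flat classes, KIF20A, a kinesin of cytokinesis, was at 12.7 FPKM with the mimic and 25.7 FPKM with the scramble in MIA PaCa-2, and 6.44 and 5.49 FPKM in PSN-1, and KIFC1, a spindle motor, had log2 changes of -1.503 and -0.48. The list of G1/S and DNA replication genes was low in both lines, with medians of -0.34 and -0.17, 11 of 51 lower in MIA PaCa-2 against 4 in PSN-1. None of its genes was among the 216, since those that moved in MIA PaCa-2 were not flat in PSN-1. LIG1, the replicative DNA ligase, was an example with log2 changes of -1.41 and -0.53.

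None of the 29 tested heat shock and chaperone genes entered a class. Past 1.5-fold, 3 were lower in MIA PaCa-2 and 2 higher in PSN-1 (2.84% and 1.75% of all genes), and the difference was above 1.5-fold in 7 and below it in 0 (2.87% and 5.71% of all). The medians were -0.26 in MIA PaCa-2 against 0.20 in PSN-1. HSP90AA1, the inducible cytosolic HSP90, was at 1638 FPKM with the mimic and 1959 FPKM with the scramble in MIA PaCa-2, and 862 and 475 FPKM in PSN-1. DNAJB4, a partner of HSP70, was at 57.6 FPKM with the mimic and 91.7 FPKM with the scramble in MIA PaCa-2, and 20.9 and 16.5 FPKM in PSN-1. HSPA1A, with the near-identical HSPA1B an uncertain pair, had log2 changes of -0.62 and 0.51, and HSPA1B of -0.30 and 0.50. The HNRNP and SRSF list had a median of -0.16 in MIA PaCa-2 against -0.014 in PSN-1, with 4 of 28 lower in MIA PaCa-2 and none in PSN-1. TRA2A, a splicing activator, was its member with the widest difference, at 25.2 FPKM with the mimic and 39.0 FPKM with the scramble in MIA PaCa-2, and 62.2 and 47.8 FPKM in PSN-1.

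Signalling lists leaned the other way. ERK feedback genes, which encode phosphatases, Sproutys and other brakes on the MAP kinase pathway, had 8 of 17 higher and 0 lower in MIA PaCa-2, and 3 higher and 4 lower in PSN-1. The median log2 change was 0.43 in MIA PaCa-2 against -0.0050 in PSN-1, and the difference was below 1.5-fold in 6 and above it in 1. PHLDA1, an ERK-responsive gene, was at 137 FPKM with the mimic and 67.1 FPKM with the scramble in MIA PaCa-2, and 72.3 and 93.1 FPKM in PSN-1, beside DUSP5 and SPRY4 described above. TGF-beta and BMP genes had medians of 0.24 and -0.047, with 3 of 13 higher in MIA PaCa-2, and 1 higher and 2 lower in PSN-1. Their median difference was -0.30, but -0.12 with a pseudocount of 5 FPKM, -0.18 at a minimum of 1 FPKM and -0.52 at a minimum of 10 FPKM. Of the 24 lists, these 2 and the 4 of the preceding paragraphs (G2/M, G1/S, heat shock, and HNRNP and SRSF) were the ones whose median difference lay over 0.2 from that of all genes. The number of such lists was 4 to 8 over the other settings. TGF-beta and BMP genes dropped out with a pseudocount of 5 FPKM, a minimum of 1 FPKM or no filter, and G1/S genes with a pseudocount of 5 FPKM or the GC trend removed.

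Immediate-early transcription factors were high in both lines on balance and still held wide differences in each direction. Of 28 tested, 13 were higher in MIA PaCa-2 against 11 in PSN-1, with medians of 0.54 and 0.49. The difference was above 1.5-fold in 8 and below it in 10. FOS, a subunit of AP-1, was at 505 FPKM with the mimic and 687 FPKM with the scramble in MIA PaCa-2, and 913 and 411 FPKM in PSN-1. KLF2, a zinc finger factor, was at 52.5 FPKM with the mimic and 20.2 FPKM with the scramble in MIA PaCa-2, and 13.2 and 17.9 FPKM in PSN-1. FOSB, another AP-1 subunit, was at 17.99 FPKM with the mimic and 15.05 FPKM with the scramble in MIA PaCa-2, and 109.8 and 34.9 FPKM in PSN-1. FOS and FOSB were highest in the PSN-1 mimic library, while KLF2 was higher with the mimic in MIA PaCa-2 only.

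NF-kB and inflammatory cytokine genes had medians of 0.34 and 0.44, with 7 of 20 higher in MIA PaCa-2 against 8 in PSN-1. The difference was above 1.5-fold in 4 and below it in 6. LIF, a cytokine of the IL-6 family, was at 15.6 FPKM with the mimic and 4.76 FPKM with the scramble in MIA PaCa-2, and 10.1 and 14.6 FPKM in PSN-1. Its difference of -2.02 was the third lowest of all tested genes although its PSN-1 change of -0.49 stopped short of 1.5-fold. MAP3K8, a kinase upstream of ERK, lay at the other end with a difference of 1.59, at 7.72 FPKM with the mimic and 16.8 FPKM with the scramble in MIA PaCa-2, and 11.8 and 7.74 FPKM in PSN-1. TRAF1, an adaptor of TNF receptors, was at 4.73 FPKM with the mimic and 5.97 FPKM with the scramble in MIA PaCa-2, and 14.7 and 5.91 FPKM in PSN-1. The larger change was the MIA PaCa-2 one in LIF and MAP3K8 and the PSN-1 one in TRAF1.

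Among stress lists, NRF2 and antioxidant genes had 7 of 24 higher in MIA PaCa-2 against 2 in PSN-1 (4.55% and 1.75% of all genes), and 6 differences below 1.5-fold with 0 above (5.71% and 2.87% of all). HMOX1, heme oxygenase, was at 568 FPKM with the mimic and 95.7 FPKM with the scramble in MIA PaCa-2, and 45.7 and 24.9 FPKM in PSN-1. SRXN1 and OSGIN1, further NRF2 targets, had log2 changes of 1.01 and 1.103 in MIA PaCa-2 and -0.49 and -0.35 in PSN-1. Unfolded protein and integrated stress response genes had 6 of 35 higher in MIA PaCa-2 against 1 in PSN-1, with 5 differences below 1.5-fold and 0 above. TRIB3, an ATF4 target, was at 217 FPKM with the mimic and 101 FPKM with the scramble in MIA PaCa-2, and 124 and 151 FPKM in PSN-1. In the p53 and apoptosis list, GADD45A was at 58.5 FPKM with the mimic and 26.5 FPKM with the scramble in MIA PaCa-2, and 50.4 and 62.9 FPKM in PSN-1, and its relative GADD45B went the opposite way, at 119 FPKM with the mimic and 193 FPKM with the scramble in MIA PaCa-2, and 62.6 and 42.6 FPKM in PSN-1. No tested gene passed 1.5-fold in either line among 82 cytosolic ribosomal protein genes, 27 genes of cholesterol and fatty acid synthesis and 25 of microRNA processing and silencing.

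**Figure D4:**
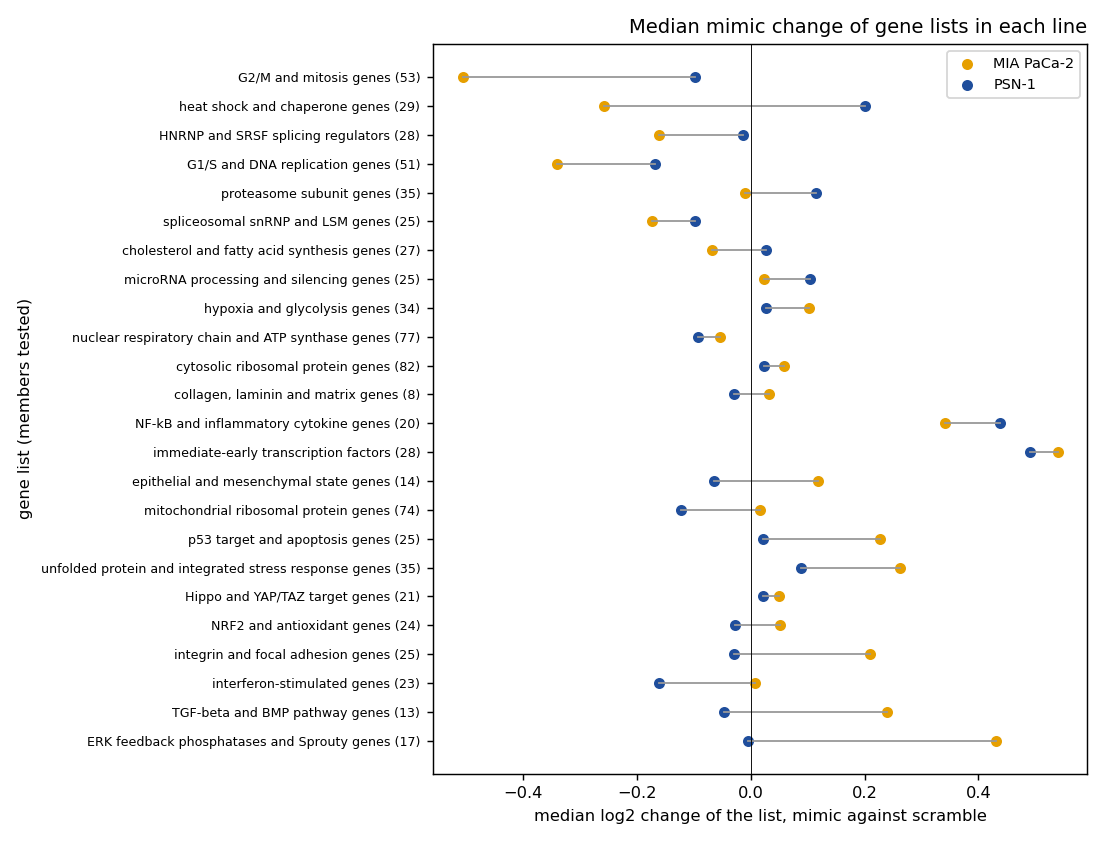
Median log2 change of each of 24 gene lists in MIA PaCa-2 (orange) and PSN-1 (blue), joined by a line, with the number of tested genes in brackets and lists ordered by their median difference. The G2/M list lies at -0.51 and -0.098, heat shock genes at -0.26 and 0.20, and ERK feedback genes at 0.43 and -0.0050.

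Several genes with wide differences met neither rule. In all of those given here but RNF220, 1 of the lines was between flat and 1.5-fold. SOCS1, a feedback inhibitor of cytokine receptors, was at 17.6 FPKM with the mimic and 5.43 FPKM with the scramble in MIA PaCa-2, and 9.76 and 12.3 FPKM in PSN-1. S100A2, a calcium-binding protein, had log2 changes of 1.63 and -0.22 (counting error of the difference 0.405). PLEKHF1, an endosomal protein, had 0.47 and -1.31. SLC30A1 was at 33.6 FPKM with the mimic and 22.4 FPKM with the scramble in MIA PaCa-2, and 18.2 and 47.3 FPKM in PSN-1. IER5, a stress-induced immediate-early gene, and HEXIM1, an inhibitor of the elongation factor P-TEFb, lay on the positive side with differences of 1.45 and 1.23. RNF220, a ubiquitin ligase, was at 1.03 FPKM with the mimic and 10.3 FPKM with the scramble in MIA PaCa-2, and 13.1 and 26.7 FPKM in PSN-1, so it was lower in both lines with the larger change in MIA PaCa-2.

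ALDH1A3, an enzyme of retinoic acid synthesis, was lower with the mimic in PSN-1 by -2.02 on the log2 scale, at 11.7 FPKM with the mimic and 50.4 FPKM with the scramble in PSN-1, and 25.9 and 29.7 FPKM in MIA PaCa-2. It is shown because it holds an 8mer seed site in its 3′ UTR, at chr15:100916010-100916017, forward strand in GRCh38, and its MIA PaCa-2 change of -0.19 lay just outside the flat range.
ALDH1A3: tgttatccGACGGATActtttatg

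Genes with seed sites had similar medians in both lines. The 193 tested genes with an 8mer or 7-base site had median log2 changes of -0.11 in MIA PaCa-2 against -0.12 in PSN-1, and a median difference of 0.0012. The 7112 genes without a site, taken here as those that also lack a shorter 6-base match to the seed, had 0.019, -0.0046 and -0.036. Past 1.5-fold, 10.4% of the site genes were lower in MIA PaCa-2 against 9.84% in PSN-1, against 2.47% and 2.095% of genes without a site. The difference was above 1.5-fold in 4.15% and below it in 6.22% of site genes, against 2.83% and 5.69%. Sites were held by 8 of 42 genes with a 3′ UTR that were lower in both lines (19.0%), by 3 of 41 that were lower in PSN-1 alone, by 2 of 45 that were lower in MIA PaCa-2 alone and by 2.56% of all genes. NR2F1 and ZNF740, 2 of the 3 with a site that were lower in PSN-1 alone, had log2 changes of -0.85 and -0.73 there and of -0.061 and -0.03 in MIA PaCa-2. AEN and C12orf49 were higher in MIA PaCa-2 despite a site, with 0.61 and 0.61.

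The base composition of the 3′ UTR moved with the PSN-1 change. The median GC content of the 3′ UTR was 52.4% in genes lower in PSN-1 alone and 34.9% in genes higher in PSN-1 alone, against 42.9% in all tested genes with a 3′ UTR. It was 43.9% in genes higher in MIA PaCa-2 alone, 39.1% in genes lower in MIA PaCa-2 alone and 45.8% in genes higher in MIA PaCa-2 and lower in PSN-1. With the genes divided by GC content into 5 equal groups, from the lowest to the highest, the median PSN-1 log2 change went from 0.058 to -0.10 and the median MIA PaCa-2 change from 0.0096 to -0.0072. Genes lower in PSN-1 alone numbered 2 in the lowest group and 16 in the highest. Across 7547 genes, Spearman's rho with GC content was -0.25 for the PSN-1 change, -0.024 for the MIA PaCa-2 change and -0.17 for the difference. With transcript length, rho was 0.14, -0.038 and 0.14 in the same order. These genes share libraries and are not replicates. After the running median over genes ordered by GC content was subtracted in each line, 26 of the 41 genes lower in PSN-1 alone that had a 3′ UTR and 7 of the 13 higher in PSN-1 alone kept their class, as did 72 of 86 higher and 31 of 45 lower in MIA PaCa-2 alone. Of the 15 opposite genes 10 kept it; ABALON, BCYRN1 and TGIF2-C20orf24 had no matched 3′ UTR, and BCL2L1 and BLOC1S3 lost the class to the subtraction.

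**Figure D5:**
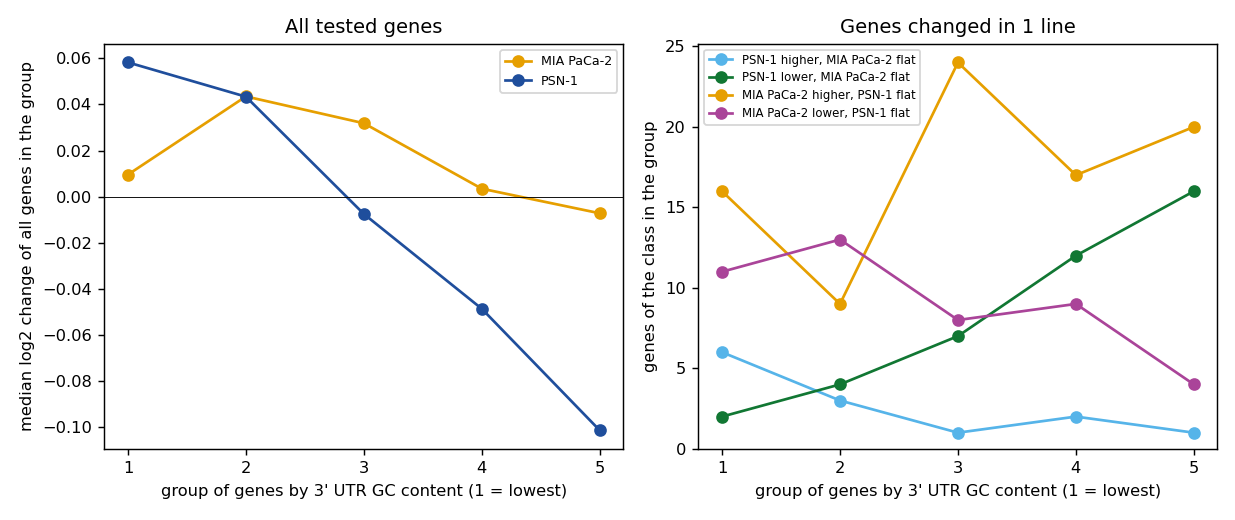
Left, median log2 change of all tested genes in each of 5 equal groups by 3′ UTR GC content, MIA PaCa-2 in orange and PSN-1 in blue; right, number of genes of each class in the same groups. The PSN-1 median declines from 0.058 to -0.10 across the groups, and genes lower in PSN-1 alone (green) increase from 2 to 16.

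Levels without the mimic differed between the classes. In the scramble libraries, 71 of the 95 genes higher in MIA PaCa-2 alone (74.7%) were at a higher level in PSN-1 than in MIA PaCa-2, against 48.2% of all tested genes. Among the 48 genes lower in MIA PaCa-2 alone this was so for 11 (22.9%). With the mimic, the same counts were 42 (44.2%) and 35 (72.9%), against 46.7% of all. The change and the level share a scramble library, so chance variation in that library moves both, and its part in these shares was not tested.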

How the data were processed

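Polyadenylated RNA was sequenced from 4 libraries, 1 for each combination of line and oligonucleotide, after miRNeasy Micro extraction and TruSeq stranded mRNA library preparation, per the labels' protocols. The values are FPKM that the authors deposited for each gene symbol. TopHat2 2.1.1, Cuffdiff 2.2.1 and hg19 are named in the submitters' processing notes. The sources used here give no annotation, strand setting or scaling. Since FPKM is relative to the library total, abundant genes can shift all others. No reads or counts were used.

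Log2 changes used a pseudocount of 1 FPKM, which understates the change of low genes. The groups came from the labels. With 1 library per group no test was made, and the classes rest on 1.5-fold (changed) and 1.1-fold (flat). Depth was estimated from 43 to 62 single-transcript genes per library in the most frequent step, with fragments taken as 200 bases. Counting errors of very short transcripts used an assumed minimum length. Symbols of 7644 tested genes matched GENCODE release 29 (GRCh38), and 7547 had a 3′ UTR. The genes described, the 24 gene lists and the thresholds were chosen with earlier results of these data known. Named genes were all opposite genes, the 8 with the largest change in each class, the 8 highest and 8 lowest further differences and up to 3 genes per list; others were named after their values were seen, among them paralogs. Of the genes this rule names, 2 are not reported here, though counts and medians include them. The assignment of classes was run on simulated data with planted changes larger than 1.5-fold and counting noise only. That run left out variation between cultures and does not check the calls reported here. In all, 15 alternatives were tried, 1 of them (a difference over 2 counting errors) chosen after seeing the data. Python 3.11.15, numpy 2.4.6, pandas 2.3.3 and matplotlib 3.10.9 were used.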

Additional observations from a re-analysis of the deposited data

Results flagged for a closer look

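The genes past 1.5-fold in opposite directions are listed because the single mimic library of each line lay on a different side of its scramble. The difference between the lines was not tested, since each line has 1 pair. The PSN-1 log2 change minus the MIA PaCa-2 log2 change was -2.06 for IRF2BP2, -2.06 for ZFP36L1, -1.91 for CDC42EP3 and -1.901 for ANGPTL4. It was -1.76 for TM4SF1, -1.55 for DUSP5, -1.51 for ABALON, -1.497 for HOXB2 and -1.44 for BCL2L1. OASL had -1.37 and BLOC1S3 -1.21. On the positive side it was 1.39 for TGIF2-C20orf24, 1.46 for TYW1B and 2.03 for BCYRN1. IRF2BP2, ZFP36L1, CDC42EP3, ANGPTL4, TM4SF1 and DUSP5 also kept opposite directions in the 7 other settings at 1.5-fold that could have taken them out.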

How the results depend on the processing

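Against 15 opposite genes, 201 genes changed in 1 line only and 114 differences past 2-fold, a pseudocount of 5 FPKM gave 8, 98 and 67. A mean of at least 1 FPKM gave 41, 328 and 233, and no filter 54, 506 and 356; the opposite genes then split into 20 higher in MIA PaCa-2 and 21 higher in PSN-1, and 26 and 28, in place of 12 and 3. Keeping short RNAs gave 26 opposite genes. A threshold of 2-fold gave 0 opposite genes and 13 changed in 1 line only. Calling flat within 1.2-fold gave 390 genes changed in 1 line only, and within 5% 94. The other settings stayed within 1.5 times: a pseudocount of 0.1 FPKM, a minimum of 10 FPKM or of 5 FPKM in all 4 libraries, median-ratio scaling, median subtraction, removal of the GC trend, summing repeated symbols (none was repeated) and a difference over 2 counting errors, which left 14, 187 and 107. Of 656 recomputed differences of named genes, 62 moved by more than 0.1 and none changed sign. Changing the filter, keeping short RNAs or summing symbols cannot alter the difference of a gene that stays in. These genes were also chosen for large changes or differences, so a kept sign is no check on them. Of 264 list medians, 8 moved by more than 0.1 and 9 changed sign, all in 4 lists whose median difference was at most 0.0482 in size (NF-kB, matrix, hypoxia and microRNA processing). No paired analysis was possible because the labels carry no replicate numbers and each group is 1 library, and for the same reason no library could be left out. Depth limits genes near 5 FPKM and short transcripts most. Variation between cultures was not measured, so a line difference and a difference between 2 transfections cannot be told apart.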

Other observations

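Genes expressed in 1 line only could not enter the comparison and are given as values. Of 327 genes that averaged 5 FPKM or more in PSN-1 and under 0.1 FPKM in MIA PaCa-2, 17 were higher (5.199%) and 44 (13.5%) lower past 1.5-fold with the mimic in PSN-1, against 1.75% and 2.47% of the genes tested in both lines. Of the 1236 genes at 5 FPKM or more in PSN-1 and under 5 FPKM in MIA PaCa-2, 56 were higher (4.53%) and 99 (8.01%) lower. HTRA3, a secreted serine protease, was at 48.1 and 120.0 FPKM for mimic and scramble in PSN-1 and at 0 in both MIA PaCa-2 libraries. AMIGO2, a cell adhesion protein, was at 13.8 and 47.5 FPKM, and ADAMTS15, a matrix protease, at 5.996 and 17.7 FPKM. SPINT1, a protease inhibitor of epithelia, was at 3.86 and 9.02 FPKM. TNFRSF11B, the decoy receptor osteoprotegerin, went the other way at 16.4 and 5.195 FPKM.

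Of 48 genes with at least 5 FPKM in MIA PaCa-2 and under 0.1 FPKM in PSN-1, 8 were higher (16.7%) and 2 lower (4.17%) in MIA PaCa-2, against 4.55% and 2.84% of the genes tested in both lines. Of 796 such genes under 5 FPKM in PSN-1, 65 were higher (8.17%) and 37 lower (4.65%). TRIM55, a ubiquitin ligase known from muscle, was at 51.2 and 28.2 FPKM for mimic and scramble in MIA PaCa-2 and at 0 in PSN-1. CXCL5, a chemokine close to CXCL2, was at 24.5 and 15.1 FPKM, and ADAMTS4, a protease that cleaves aggrecan, at 18.5 and 8.68 FPKM. RAP2B, a RAS-related GTPase expressed in PSN-1 at under 5 FPKM, was at 86.4 FPKM with the mimic and 33.2 FPKM with the scramble in MIA PaCa-2, and 3.08 and 3.78 FPKM in PSN-1.

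H3F3A, a histone gene used by every cell, was listed at 22.0 FPKM in the PSN-1 scramble library and at 0.013 FPKM in its mimic library, with 0.0066 and 0.0065 FPKM for mimic and scramble in MIA PaCa-2, and is given as listed only.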
